A study of Homo sapiens with 9 samples.

Results

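Of the 21229 gene rows in the count table, 28 genes of cholesterol and fatty acid synthesis were followed, chosen by gene symbol. They comprise 7 genes from acetyl-CoA to farnesyl diphosphate, 3 genes that make lanosterol from it, 8 genes that turn lanosterol into cholesterol, 6 genes that regulate or carry sterols, and 4 genes of fatty acid synthesis. All 28 had a row and all 28 passed the filter on low counts. RNA-seq was done on blood-forming cells differentiated from H1, a human embryonic stem cell line, in 9 libraries. There were 3 libraries of CD90+ cells with GATA2 overexpression, 3 of CD90+ cells of the control genotype and 3 of CD38+ cells of the control genotype. All groups come from this 1 line, and the labels give neither the promoter or vector that drives GATA2 nor the cells carried through each sort. CD90 (THY1) and CD38 are surface proteins used to sort primitive and more committed blood cells, and GATA2 is a transcription factor of blood stem and progenitor cells. Whether the 3 libraries of a group are separate cultures is not labelled, so p-values measure only the spread between these libraries, which may be technical.

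Cholesterol is built from acetyl-CoA through the mevalonate pathway to farnesyl diphosphate, then to squalene, lanosterol and, by a chain of oxidations and reductions, cholesterol. Most of these enzymes are under the transcription factor SREBP2, the product of SREBF2, while SREBP1, the product of SREBF1, acts more on fatty acid synthesis. When sterols are low, SCAP carries the SREBPs from the endoplasmic reticulum to the Golgi for cleavage; when sterols are high, INSIG1 and INSIG2 hold SCAP back. Dividing cells need both lipids for new membrane.

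SREBPs bind sterol response elements, often beside CCAAT boxes bound by NF-Y and GC boxes bound by Sp1. RefSeq promoters (GRCh38.p14) were available for 24 of the 28 genes, and the 250 bases before the start were searched on both strands. The CCAAT box (CCAAT) was in 17 of 24 promoters (70.8%), against 33.0% of 27305 promoters of all genes and 34.3% of 12258 promoters of tested genes. The GC box (GGGCGG) was in 23 of 24 (95.8%), against 42.3% of all promoters and 62.8% of those of tested genes. One published sterol response core, TCACNCCAC, was in 1 of 24 (4.17%), that of SREBF2, against 0.875% of all promoters and 0.873% of those of tested genes. These matches are descriptions of letters and not of bound sites. Promoters of 3 genes that were lower and 3 that were higher with GATA2 overexpression are shown outside annotated exons. In these, CCAAT boxes (CCAAT or, read from the other strand, ATTGG) are in capitals. Also shown are 30 bases of SREBF2 with its sterol response core in capitals, which were not checked against annotated exons. All stretches read 5′ to 3′ on the gene's strand.
HMGCS1, chr5:43313513-43313662, minus strand: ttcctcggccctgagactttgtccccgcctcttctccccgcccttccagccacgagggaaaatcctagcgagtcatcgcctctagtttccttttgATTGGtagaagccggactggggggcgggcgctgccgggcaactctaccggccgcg
INSIG1, chr7:155297628-155297775, plus strand: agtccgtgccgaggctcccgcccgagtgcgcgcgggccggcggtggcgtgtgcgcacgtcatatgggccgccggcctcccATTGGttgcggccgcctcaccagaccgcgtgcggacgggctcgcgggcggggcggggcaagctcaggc
STARD4, chr5:111512591-111512785, minus strand: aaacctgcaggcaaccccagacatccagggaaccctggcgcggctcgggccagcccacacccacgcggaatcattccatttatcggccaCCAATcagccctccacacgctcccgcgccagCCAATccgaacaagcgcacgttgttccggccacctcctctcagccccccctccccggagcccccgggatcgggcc
MSMO1, chr4:165327419-165327622, plus strand: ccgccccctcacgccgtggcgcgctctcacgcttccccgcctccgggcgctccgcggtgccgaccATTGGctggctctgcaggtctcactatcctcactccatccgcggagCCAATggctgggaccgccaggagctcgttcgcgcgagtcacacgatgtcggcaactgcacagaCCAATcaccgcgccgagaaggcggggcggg
DHCR7, chr11:71448436-71448643, minus strand: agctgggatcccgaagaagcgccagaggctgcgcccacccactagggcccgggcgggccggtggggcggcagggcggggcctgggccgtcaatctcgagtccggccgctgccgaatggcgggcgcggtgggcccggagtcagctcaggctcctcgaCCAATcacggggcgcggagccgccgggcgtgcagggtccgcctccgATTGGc
HSD17B7, chr1:162790452-162790701, plus strand: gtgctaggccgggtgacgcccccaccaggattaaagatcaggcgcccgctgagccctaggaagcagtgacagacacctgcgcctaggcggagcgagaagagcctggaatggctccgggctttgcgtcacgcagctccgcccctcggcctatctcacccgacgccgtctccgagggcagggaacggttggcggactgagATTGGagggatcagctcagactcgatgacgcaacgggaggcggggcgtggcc
SREBF2, chr22:41832962-41832991, plus strand: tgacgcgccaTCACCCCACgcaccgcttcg
The 6 longer stretches shown all hold a CCAAT box. Of the genes with a promoter, the box was in all 3 called lower with GATA2 overexpression and in 9 of 15 called higher. It was also in 5 of the 6 not called. PMVK, IDI1, SREBF1, SCAP, INSIG2 and ELOVL6, all called higher, and CYP51A1, not called, had none.

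Libraries held 37500192 to 39582736 counts with GATA2 overexpression, 42577569 to 47261093 in control CD90+ cells and 42695005 to 45561088 in control CD38+ cells. Levels are CPM, counts scaled to a common library size adjusted by the trimmed mean of M values (TMM). GATA2 averaged 376 ± 12.8 CPM with GATA2 overexpression, 87.3 ± 1.93 CPM in control CD90+ cells and 569 ± 16.3 CPM in control CD38+ cells (SD, n = 3 each), so the CD38+ cells had the most. THY1, the gene of CD90, averaged 3.06, 4.43 and 0 CPM in the same order, and CD38 averaged 2.23, 4.37 and 122 CPM. A gene was called when the edgeR quasi-likelihood test gave a Benjamini-Hochberg adjusted p under 0.05 over 16232 genes; every adjusted p below is from it. The 3 contrasts share groups, so their calls are not independent of each other.

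With GATA2 overexpression, CD90+ cells had higher RNA levels of most sterol and fatty acid enzymes than control CD90+ cells: 19 of the 28 genes were called higher, 3 lower and 6 were not called. Over all genes tested, 77.6% were called in this comparison, 38% higher and 39.6% lower, against 67.9% higher and 10.7% lower of the 28. FDFT1, EBP and ELOVL6 were at least 2-fold higher, and no member was 2-fold lower; of all genes tested, 7.98% were called at least 2-fold higher and 21.4% at least 2-fold lower, together 29.4%. The median log2 fold change was 0.48 over the members and -0.04 over all genes tested. In bulk RNA, fewer cells of a type and less RNA per cell cannot be told apart, so each value is an average over the sorted cells. Scaled by library size alone, 16 members were called higher and 8 lower, and the median was 0.24 over the members and -0.29 over all genes.

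**Figure D1:**
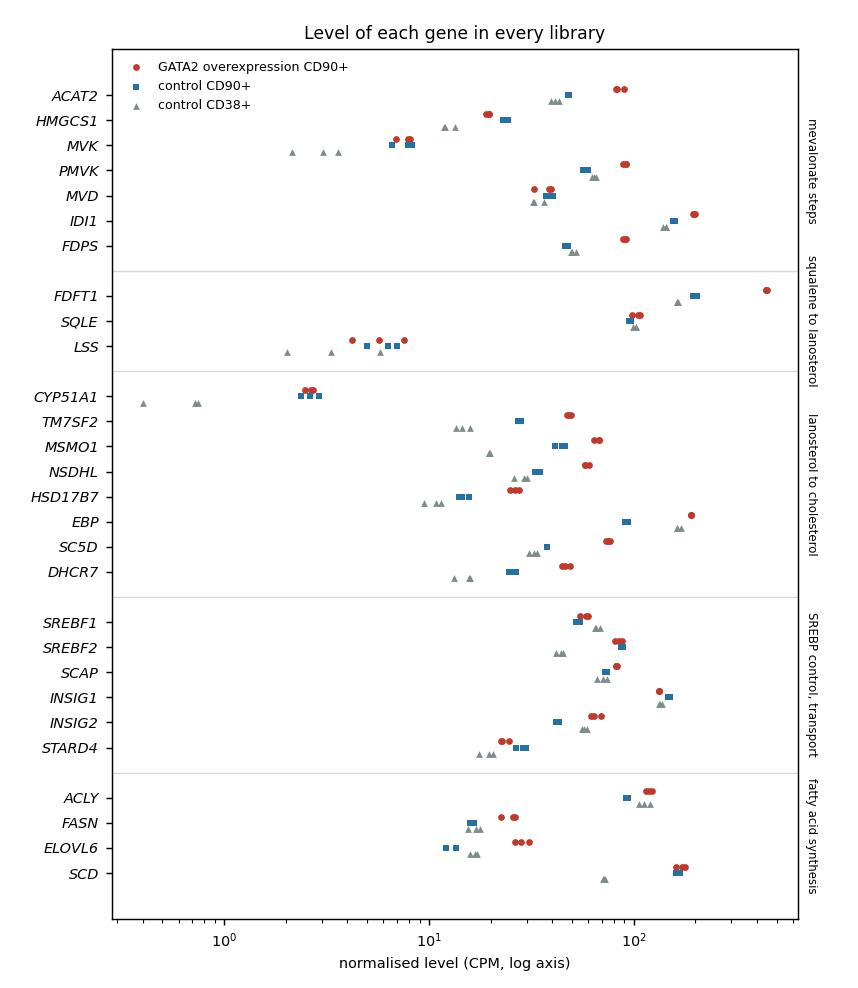
Level of each of the 28 genes in each of the 9 libraries (points) in CPM on a log axis, with rows grouped by role, circles for GATA2 overexpression CD90+, squares for control CD90+ and triangles for control CD38+ libraries. FDFT1 lies farthest to the right in both CD90+ groups, most enzymes after lanosterol have the circles farthest right, and SREBF2 and SCD have circles and squares together with the triangles to their left.

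In the mevalonate part, 4 of 7 genes were called higher with GATA2 overexpression, 1 lower and 2 not called. ACAT2, which joins acetyl-CoA units, had 82.4, 89.3 and 82.4 CPM with GATA2 overexpression, against 48.1, 48.3 and 48.0 CPM in control CD90+ cells. The groups did not overlap, and the log2 fold change was 0.82 ± 0.043 (SE, adjusted p = 1.89e-11). Of its exon length, 26.5% overlaps SOD2 on the opposite strand, and the strand setting of the counting is not given in the sources used here. HMGCS1, the HMG-CoA synthase of the next step, went the other way, with 18.9, 19.7 and 19.6 CPM in GATA2 overexpression libraries and 24.1, 23.1 and 24.3 CPM in control CD90+ libraries. Every GATA2 overexpression library was below every control CD90+ library, and the log2 fold change was -0.30 ± 0.066 (SE, adjusted p = 0.000676). The mevalonate kinase MVK averaged 7.64 ± 0.662 CPM with GATA2 overexpression and 7.57 ± 0.877 CPM in control CD90+ cells (SD, n = 3 each), and was not called. PMVK, which adds the next phosphate, had 88.8, 92 and 91.9 CPM with GATA2 overexpression and 59.7, 58.8 and 56.4 CPM in control CD90+ cells, a log2 fold change of 0.64. MVD, the decarboxylase that follows, ranged from 32.6 to 39.4 CPM with GATA2 overexpression and from 37.2 to 40.5 CPM in control CD90+ cells, which overlap, and was not called (-0.09); it was called lower in 3 of 15 alternatives, at -0.34 with library size alone. The isomerase IDI1 was modestly higher, at 197 ± 2.37 CPM with GATA2 overexpression against 157 ± 1.75 CPM in control CD90+ cells (SD, n = 3 each). FDPS, which makes farnesyl diphosphate, had 91.3, 90.9 and 89.0 CPM with GATA2 overexpression against 48.0, 46.3 and 47.3 CPM in control CD90+ cells. Its libraries were 1.91-fold higher (adjusted p = 2.19e-13), but the annotation holds 8 pseudogenes named after it, and how reads matching several copies were assigned is likewise not given.

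At the branch to sterols, FDFT1, the squalene synthase that commits farnesyl diphosphate to cholesterol, had the most CPM of any member in both CD90+ groups; in control CD38+ cells it averaged 164 ± 1.18 CPM and EBP 165 ± 4.72 CPM (SD, n = 3 each), which overlap. It had 442, 446 and 441 CPM with GATA2 overexpression, against 201, 195 and 205 CPM in control CD90+ cells. The groups were far apart relative to their spread, and the log2 fold change was 1.15 ± 0.024 (SE, adjusted p = 7.2e-17). SQLE, the squalene epoxidase, had 107, 98.3 and 105 CPM with GATA2 overexpression and 95.3, 94.7 and 97.4 CPM in control CD90+ cells. This 1.08-fold difference was called at an adjusted p of 0.007, and its sign turned with library size alone, which called it lower (-0.13). LSS, which closes squalene epoxide into lanosterol, was low and scattered, at 5.71, 4.21 and 7.56 CPM with GATA2 overexpression and 6.97, 4.97 and 6.34 CPM in control CD90+ cells, and was not called.

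After lanosterol, 7 of 8 genes were called higher with GATA2 overexpression and CYP51A1 was not called. CYP51A1, the lanosterol demethylase, had 2.66, 2.70 and 2.47 CPM with GATA2 overexpression against 2.63, 2.92 and 2.38 CPM in control CD90+ cells; 79.4% of its exon length overlaps another annotated gene on the same strand, so its count is uncertain. The C14 reductase TM7SF2 averaged 48.2 ± 1.09 CPM with GATA2 overexpression and 27.7 ± 0.587 CPM in control CD90+ cells (SD, n = 3 each). MSMO1, the C4 methyl oxidase, had 67.6, 67.6 and 64.3 CPM with GATA2 overexpression and 44.5, 45.9 and 41.2 CPM in control CD90+ cells, a log2 fold change of 0.60. NSDHL and HSD17B7, which work with MSMO1 to remove the C4 methyl groups, had log2 fold changes of 0.80 and 0.83. For HSD17B7 the annotation holds 2 named pseudogenes, whose effect on its counts was not tested. EBP, the sterol isomerase, had 190.2, 191 and 190.1 CPM with GATA2 overexpression and 90.3, 91.8 and 93.4 CPM in control CD90+ cells. No library of one group came near the other, and EBP was 2.07-fold higher (adjusted p = 1.4e-15). SC5D, the sterol desaturase after EBP, averaged 74.8 ± 1.61 CPM with GATA2 overexpression and 37.7 ± 0.171 CPM in control CD90+ cells (SD, n = 3 each), 1.98-fold higher. DHCR7, which reduces the last intermediate of one branch to cholesterol, had 49.1, 44.8 and 46.2 CPM with GATA2 overexpression and 26.5, 25.6 and 24.5 CPM in control CD90+ cells, a log2 fold change of 0.87. The 7 genes called higher here had log2 fold changes between 0.60 (MSMO1) and 1.05 (EBP).

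**Figure D2:**
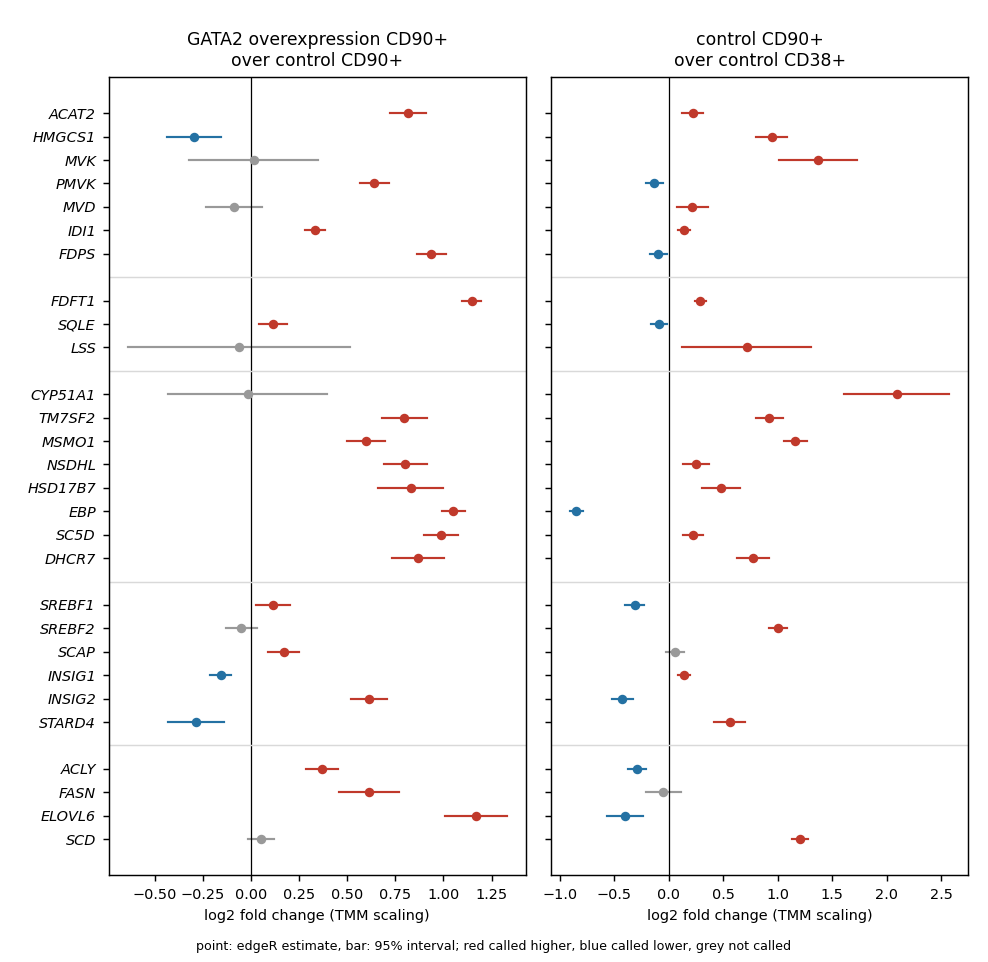
Log2 fold change of each gene (point) with its 95% interval (bar), GATA2 overexpression over control CD90+ at the left and control CD90+ over control CD38+ at the right, on TMM-scaled counts. Red points were called higher, blue lower and grey were not called; at the left HMGCS1, INSIG1 and STARD4 are the 3 genes called lower.

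Among the regulators, the differences of the 2 SREBP genes with GATA2 overexpression were small. SREBF2 had 87.4, 84.4 and 81.4 CPM with GATA2 overexpression and 86.4, 88.7 and 87.2 CPM in control CD90+ cells, and the 95% interval of its log2 fold change ran from -0.13 to 0.03. It was not called, but was called lower in 5 of 15 alternatives: library size alone (-0.30), upper-quartile factors (-0.17), the 1 CPM filter (-0.15), and DESeq2 or its size factors (-0.10 each). SREBF1 had 54.6, 58.6 and 59.8 CPM with GATA2 overexpression and 54.4, 52.4 and 53.0 CPM in control CD90+ cells, a log2 fold change of 0.11 (adjusted p = 0.0209) whose sign turned with library size alone, which called it lower (-0.13). Its call was lost without GATA2 overexpression replicate 3 (adjusted p = 0.11), without control CD90+ replicate 2 (adjusted p = 0.0675) and without control CD90+ replicate 3 (adjusted p = 0.0511). SCAP, the SREBP escort, averaged 82.4 ± 0.595 CPM with GATA2 overexpression and 73.3 ± 0.841 CPM in control CD90+ cells (SD, n = 3 each); its log2 fold change was 0.17 and was -0.08 with library size alone. The 2 INSIG genes went opposite ways. INSIG1, itself an SREBP target, had 133, 133 and 132 CPM with GATA2 overexpression against 146, 149.9 and 148 CPM in control CD90+ cells, a log2 fold change of -0.16 ± 0.026 (SE, adjusted p = 2.94e-05). INSIG2 had 69.1, 61.6 and 64.2 CPM with GATA2 overexpression against 43.1, 42.5 and 41.9 CPM in control CD90+ cells, a log2 fold change of 0.61 ± 0.045 (SE, adjusted p = 1.46e-09). STARD4, a carrier of cholesterol between membranes and a known SREBP2 target, had 22.5, 22.8 and 24.5 CPM with GATA2 overexpression and 29.6, 28.8 and 26.7 CPM in control CD90+ cells. It was 1.22-fold lower (adjusted p = 0.00107). The calls of HMGCS1, INSIG1 and STARD4 as lower held under all 15 alternatives of the fit, and 16 of the 19 calls higher did so.

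RNA levels of the 4 members of fatty acid synthesis were also higher in part, with 3 of 4 genes called higher and SCD not called. ACLY, which makes the cytosolic acetyl-CoA that both pathways use, had 123, 115 and 119 CPM with GATA2 overexpression and 91.6, 91.6 and 93.6 CPM in control CD90+ cells, a log2 fold change of 0.37. FASN, the fatty acid synthase, had 22.5, 26.3 and 25.6 CPM with GATA2 overexpression and 15.8, 16.6 and 16.2 CPM in control CD90+ cells, a log2 fold change of 0.61. ELOVL6, which lengthens its product, had 28.1, 26.2 and 30.8 CPM with GATA2 overexpression and 12.1, 13.6 and 12.1 CPM in control CD90+ cells. This was the largest fold among the members in this comparison, at 2.25-fold (adjusted p = 2.59e-10). SCD, the desaturase that makes monounsaturated fatty acids, had 177, 161 and 173 CPM with GATA2 overexpression and 161, 164 and 168 CPM in control CD90+ cells, which overlap; without GATA2 overexpression replicate 2 it was called higher, at a log2 fold change of 0.09 (adjusted p = 0.0109), and with library size alone it was called lower, at -0.20 (adjusted p = 3.32e-05).

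Between control CD90+ cells and control CD38+ cells, 18 of the 28 genes were called higher in CD90+ cells, 8 lower and 2 were not called. Of all genes tested, 80.4% were called here, 41.1% higher and 39.3% lower, against 64.3% and 28.6% of the members. The median log2 fold change was 0.22 over the members and 0.03 over all genes. CYP51A1, MVK, SCD, MSMO1 and SREBF2 were at least 2-fold higher, which is 17.9% of the members against 22.6% of all genes tested, and no member was 2-fold lower, against 13.6% of all genes; 36.2% of all genes were called at least 2-fold either way. With library size alone, 25 members were called higher and 1 lower, and the median over all genes was 0.44, so most of the 8 lower calls depend on the scaling.

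SREBF2 and SCD were at least 2-fold higher in control CD90+ cells under each scaling, SREBF2 only just so with TMM. Over the 15 alternatives the lowest log2 fold change was 0.97 for SREBF2 and 1.19 for SCD. It was 1.13 for MSMO1, 1.19 for MVK and 1.85 for CYP51A1. SREBF2 had 86.4, 88.7 and 87.2 CPM in control CD90+ cells against 41.6, 45.1 and 44.2 CPM in control CD38+ cells, a log2 fold change of 1.0 ± 0.040 (SE, adjusted p = 2.53e-13). SCD had 161, 164 and 168 CPM in control CD90+ cells and 72.8, 70.7 and 71.3 CPM in control CD38+ cells, 2.30-fold higher (adjusted p = 3.15e-15); the annotation holds 1 pseudogene named after it. Every CD90+ library, of either genotype, was above every control CD38+ library for both genes. SREBF1 had 54.4, 52.4 and 53.0 CPM in control CD90+ cells and 65.4, 64.9 and 68.4 CPM in control CD38+ cells, a log2 fold change of -0.31 that was 0.10 with library size alone.

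Among the enzymes, HMGCS1 had 24.1, 23.1 and 24.3 CPM in control CD90+ cells and 13.4, 11.8 and 12 CPM in control CD38+ cells, 1.92-fold higher (adjusted p = 1.06e-09). MSMO1 had 44.5, 45.9 and 41.2 CPM in control CD90+ cells and 19.5, 19.8 and 19.6 CPM in control CD38+ cells, 2.24-fold higher (adjusted p = 9.54e-13). MVK averaged 7.57 ± 0.877 CPM in control CD90+ cells and 2.93 ± 0.722 CPM in control CD38+ cells (SD, n = 3 each). TM7SF2 and DHCR7 were 1.89-fold and 1.71-fold higher. CYP51A1 had the largest fold, 4.25, from the lowest levels of any member, at 2.64 ± 0.272 CPM in control CD90+ cells and 0.622 ± 0.192 CPM in control CD38+ cells (SD, n = 3 each). LSS was called higher at a log2 fold change of 0.72 (adjusted p = 0.0269), yet its libraries overlapped, at 6.97, 4.97 and 6.34 CPM in control CD90+ cells and 2.02, 3.32 and 5.76 CPM in control CD38+ cells. The LSS call was lost without control CD90+ replicate 1 or 3 (adjusted p = 0.0892 and 0.0641) and without control CD38+ replicate 1 or 2 (adjusted p = 0.133 and 0.0844). HSD17B7 and STARD4 had log2 fold changes of 0.48 and 0.56. FDFT1, NSDHL, SC5D, ACAT2, MVD, IDI1 and INSIG1 were called higher at 0.14 to 0.29 on the log2 scale. Of the 18 calls higher, all but that of LSS held under all 15 alternatives.

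EBP was the main exception, with 90.3, 91.8 and 93.4 CPM in control CD90+ cells against 163, 171 and 162 CPM in control CD38+ cells. Every control CD90+ library was below every CD38+ library, and the log2 fold change was -0.85 ± 0.028 (SE, adjusted p = 1.7e-14). EBP was the only one of the 8 lower calls that held under all 15 alternatives. INSIG2, at 43.1, 42.5 and 41.9 CPM in control CD90+ cells and 55.7, 59.0 and 56.9 CPM in control CD38+ cells, had a log2 fold change of -0.43 that was -0.02 and not called with library size alone (adjusted p = 0.712). ELOVL6 had 12.1, 13.6 and 12.1 CPM in control CD90+ cells and 15.8, 16.8 and 17.2 CPM in control CD38+ cells, a log2 fold change of -0.40 that was 0.01 with library size alone. ACLY followed at -0.29, and PMVK, FDPS and SQLE at -0.13, -0.10 and -0.09; all 4 were positive with library size alone. Leaving out 1 library ended the call of FDPS in 3 cases (control CD90+ replicate 2 or 3, control CD38+ replicate 3; adjusted p from 0.0543 to 0.104) and that of SQLE in 4 (control CD90+ replicate 1 or 2, control CD38+ replicate 1 or 3; adjusted p from 0.0791 to 0.108). SCAP and FASN were not called. SCAP was called higher in 7 of 15 alternatives, among them library size alone (0.46), upper-quartile factors (0.32), DESeq2 (0.10) and leaving out control CD38+ replicate 3 (0.09, adjusted p = 0.0435). FASN was called higher with library size alone (0.36, adjusted p = 0.000341) and upper-quartile factors (0.21, adjusted p = 0.0171).

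Set directly against control CD38+ cells, GATA2 overexpression CD90+ cells had 23 of the 28 genes called higher, 1 lower (SREBF1) and 4 not called (MVD, SQLE, INSIG1 and ACLY). Of all genes tested, 83.2% were called in this comparison, 43.3% higher and 39.9% lower. At least 2-fold higher were 11 members (39.3%), against 23% of all genes tested, and none was 2-fold lower, against 21.2% of all genes; 44.2% of all genes were called at least 2-fold either way. The median log2 fold change was 0.71 over the members and 0.07 over all genes. All 8 genes after lanosterol were called higher: MSMO1 was 3.39-fold, TM7SF2 3.29-fold, DHCR7 3.12-fold, HSD17B7 2.47-fold, SC5D 2.31-fold and NSDHL 2.07-fold higher, CYP51A1 4.20-fold and EBP 1.15-fold. FDFT1 was 2.70-fold higher (adjusted p = 1.56e-18). SREBF1 had 54.6, 58.6 and 59.8 CPM with GATA2 overexpression and 65.4, 64.9 and 68.4 CPM in control CD38+ cells, a log2 fold change of -0.20 (adjusted p = 0.000332) that was not called with library size alone. Of the 23 calls, LSS alone was lost when 1 library was left out (GATA2 overexpression replicate 1 or 3, control CD38+ replicate 1 or 2; adjusted p from 0.0617 to 0.203). MVD was called higher without GATA2 overexpression replicate 1 or control CD38+ replicate 3 (adjusted p = 0.00458 and 0.0261), and ACLY without GATA2 overexpression replicate 2 or control CD38+ replicate 3 (adjusted p = 0.0232 and 0.00615).

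Summed within each library, the 8 genes after lanosterol took 510.3 to 516 CPM with GATA2 overexpression, 275 to 280.0 CPM in control CD90+ cells and 283 to 292 CPM in control CD38+ cells, where EBP alone averaged 165 CPM. The 3 genes from squalene synthesis to lanosterol took 549 to 555, 295 to 308 and 268 to 272 CPM in the same order, most of it FDFT1. The mevalonate genes took 518 to 538, 380.3 to 382 and 344 to 352 CPM. With TMM, the regulators differed less, at 444 to 449, 429.6 to 436 and 384 to 399 CPM. The fatty acid genes took 329 to 351, 281 to 290.4 and 213 to 225 CPM, in which SCD and ACLY weigh most. Some of this depended on the scaling. As a share of all counts, the regulators averaged 0.0437% with GATA2 overexpression, 0.0504% in control CD90+ and 0.0343% in control CD38+ cells. The genes after lanosterol averaged 0.0504%, 0.0323% and 0.0251%, with control CD90+ then above control CD38+ cells. The fatty acid genes averaged 0.0336%, 0.0332% and 0.0191%.

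**Figure D3:**
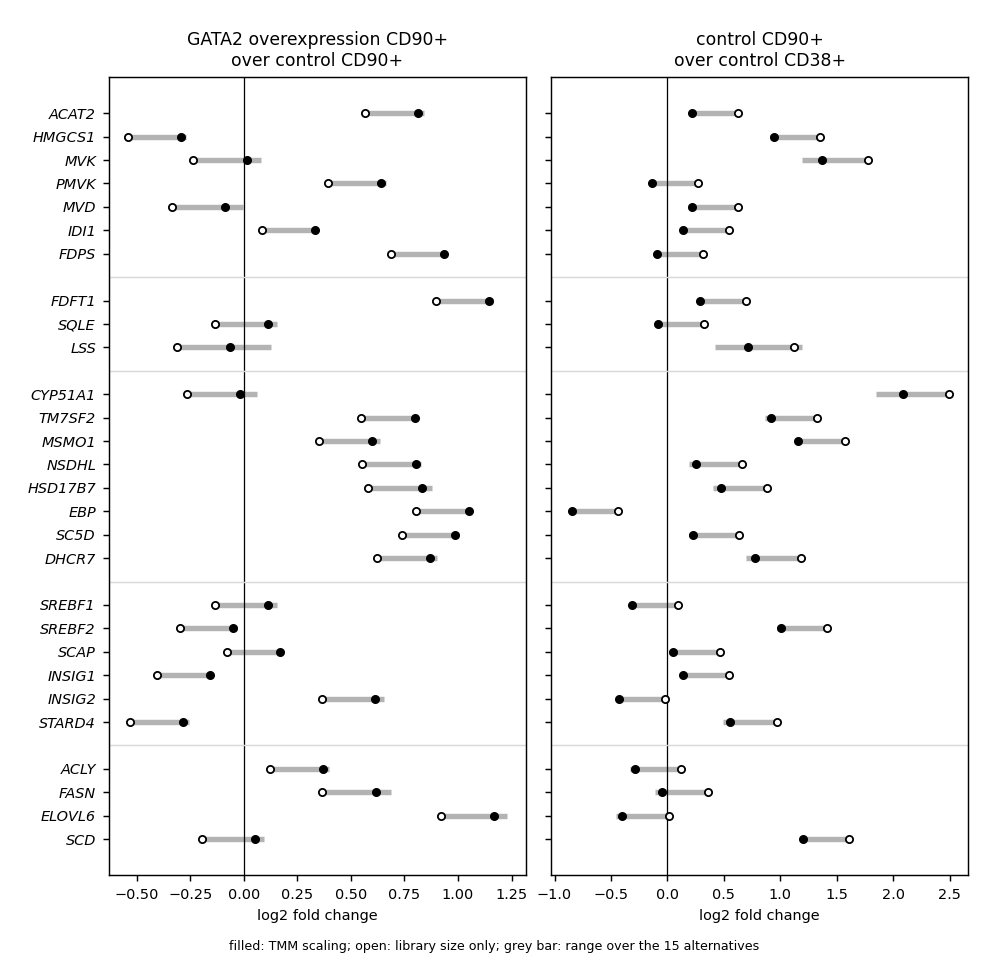
Log2 fold change of each gene with TMM scaling (filled point), with library size alone (open point) and its range over the 15 alternatives (grey bar), GATA2 overexpression over control CD90+ at the left and control CD90+ over control CD38+ at the right. Library size alone shifts all genes left in the first comparison and right in the second. Bars that cross 0 mark directions that depend on the processing. The bars of HMGCS1, INSIG1 and STARD4 at the left and EBP at the right stay below 0, and all 15 alternatives called these genes lower. Bars of SREBF2 and MVD at the left and INSIG2 at the right also stay below 0, but their calls changed with the processing.

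Per kilobase of annotated exon, which allows levels of different genes to be set side by side, the order of the members differed between groups. FDFT1 (85.1 CPM per kb) and EBP (79.0) led with GATA2 overexpression, PMVK (45.5) led in control CD90+ cells, and EBP (68.6) led in control CD38+ cells. CYP51A1 was the lowest member in each group, at 0.729, 0.737 and 0.174 CPM per kb in the same order. As 79.4% of its exon length overlaps another annotated gene on the same strand, its count and this rank are uncertain. These levels use the union of exons in GENCODE 29 (GRCh38), which may not be the annotation the authors counted on.

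Ratios of 2 genes within a library do not depend on library scaling. SREBF1 to SREBF2 was 0.625 to 0.735 with GATA2 overexpression, 0.591 to 0.630 in control CD90+ cells and 1.44 to 1.57 in control CD38+ cells. The control CD90+ and CD38+ ratios did not overlap (2-sided exact permutation p = 0.1, the smallest that 3 against 3 libraries allow), and those of GATA2 overexpression and control CD90+ libraries did (exact p = 0.2). INSIG1 to INSIG2 was 1.93 to 2.16 with GATA2 overexpression, 3.40 to 3.54 in control CD90+ cells and 2.25 to 2.43 in control CD38+ cells, with no overlap between any pair of groups. FASN to HMGCS1 was 1.19 to 1.34 with GATA2 overexpression, 0.657 to 0.719 in control CD90+ cells and 1.31 to 1.42 in control CD38+ cells. Here control CD90+ libraries stood apart from both others, and the GATA2 overexpression and CD38+ libraries overlapped (exact p = 0.3). In all, 9 comparisons of ratios were made, and none can pass 0.05 at this size; 7 had no overlap (exact p = 0.1, Benjamini-Hochberg adjusted 0.129).

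**Figure D4:**
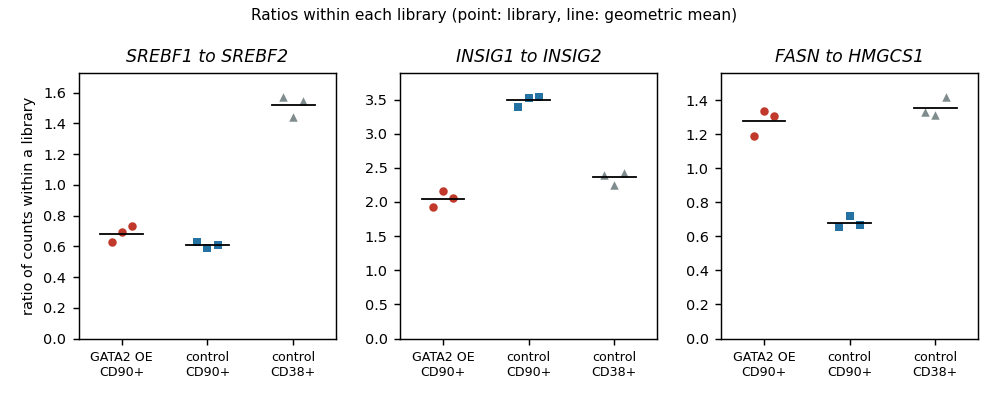
Ratio of SREBF1 to SREBF2, INSIG1 to INSIG2 and FASN to HMGCS1 in each library (points), with the group's geometric mean as a line, on linear axes from 0. SREBF1 to SREBF2 is highest in control CD38+ cells, INSIG1 to INSIG2 is highest in control CD90+ cells and FASN to HMGCS1 is lowest there.

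Among other genes of the pathway, more were called lower than higher. Of 22 other genes of sterol synthesis, uptake and SREBP control, 8 were higher and 12 lower by the same call with GATA2 overexpression than in control CD90+ cells. These were 36.4% and 54.5%, against 38% higher and 39.6% lower of all genes tested, so the share higher was near that of all genes. Their median log2 fold change was -0.12, against -0.04 over all genes tested. TMEM97, a sterol-regulated membrane protein, had 138, 136 and 135 CPM with GATA2 overexpression and 63.6, 64.1 and 65.8 CPM in control CD90+ cells, a log2 fold change of 1.08. ERLIN1, an endoplasmic reticulum protein that takes part in sterol-dependent degradation, had a log2 fold change of 1.09. NPC1, which exports cholesterol from lysosomes, had 10.3, 9.38 and 9.59 CPM with GATA2 overexpression and 37, 36.8 and 39.5 CPM in control CD90+ cells, a log2 fold change of -1.95.

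Of 28 other fatty acid genes, 10 were higher and 14 lower by the same call with GATA2 overexpression than in control CD90+ cells. These were 35.7% and 50%, against 38% higher and 39.6% lower of all genes tested. FADS2 and FADS1, the desaturases of polyunsaturated fatty acids, were among the higher ones. FADS2 averaged 309.8 ± 3.80 CPM with GATA2 overexpression and 117 ± 1.73 CPM in control CD90+ cells, and FADS1 367 ± 2.76 and 140.4 ± 0.608 CPM (SD, n = 3 each). HACD1, an elongation enzyme, and SLC25A1, the mitochondrial citrate carrier that supplies ACLY, had log2 fold changes of 1.23 and 1.11. At least 2-fold lower were SCD5 (-2.59), ELOVL4 (-2.11), MLXIPL (-1.60) and ELOVL2 (-1.47), each averaging under 2 CPM in both groups. Of 9 genes of LXR signalling and cholesterol efflux, 2 were called higher (22.2%) and 5 lower (55.6%) in this comparison. ABCA1, the efflux pump, had 4.60, 3.68 and 4.02 CPM with GATA2 overexpression and 31.1, 30.1 and 29 CPM in control CD90+ cells, a log2 fold change of -2.87; ABCG1 was at -1.65 and the LXR partner RXRA at -2.01.

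In control CD90+ against control CD38+ cells, 8 of the 22 other sterol genes were called higher (36.4%) and 13 lower (59.1%). Of the 28 other fatty acid genes, 11 were called higher (39.3%) and 15 lower (53.6%). All genes tested were called 41.1% higher and 39.3% lower, so the shares higher were near those of all genes. TMEM97 had 63.6, 64.1 and 65.8 CPM in control CD90+ cells and 14.7, 14 and 15.5 CPM in control CD38+ cells, a log2 fold change of 2.13. LBR, the other C14 sterol reductase beside TM7SF2 and a nuclear envelope protein, had 150.4, 148 and 149 CPM in control CD90+ cells and 305, 297 and 298 CPM in control CD38+ cells, a log2 fold change of -1.01. ACSL1, which activates fatty acids, averaged 42.8 ± 1.77 CPM in control CD90+ cells and 485 ± 2.68 CPM in control CD38+ cells (SD, n = 3 each).

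Markers of other cell types and of division moved with the groups, and their part in the results above was not tested. The 10 genes of dividing cells summed to 2846 to 2869 CPM with GATA2 overexpression, 1497 to 1506 CPM in control CD90+ cells and 2329 to 2356 CPM in control CD38+ cells. Of them, 9 were higher and 1 lower by the same call in GATA2 overexpression than in control CD90+ cells (38% and 39.6% of all genes tested). In control CD90+ against control CD38+ cells, 1 was higher and 9 lower (41.1% and 39.3% of all genes tested). In GATA2 overexpression against control CD38+ cells, 7 were higher and 3 lower (43.3% and 39.9%). UBE2C weighed most in the sums, at 869, 264 and 404 CPM in the same order as the sums. MKI67, the 1 called lower with GATA2 overexpression than in control CD90+ cells, averaged 97.3, 124 and 211 CPM. The macrophage markers summed to 223 to 246 CPM with GATA2 overexpression, 1801 to 1834 CPM in control CD90+ cells and 1239.9 to 1307 CPM in control CD38+ cells, and all 11 that were tested were lower with GATA2 overexpression than in control CD90+ cells. In control CD90+ against control CD38+ cells, 7 of the 11 were called higher and 4 lower (41.1% and 39.3% of all genes tested). C1QB averaged 134 and 0.779 CPM there, and CD14 29.6 and 344 CPM. CSF1R weighed most in the control CD90+ sum, at 1068 CPM. Mesenchymal markers took 256 to 272, 1073 to 1092 and 13.6 to 14.4 CPM in the same order as the sums. POSTN, one of the defining markers, was at 0 in control CD38+ cells. Of the 8 mesenchymal markers, 7 were called lower with GATA2 overexpression than in control CD90+ cells. Markers of liver and yolk sac endoderm, tissues with active sterol synthesis, took 109 to 123, 306 to 307 and 8.75 to 9.24 CPM. Blood lineage markers also differed. The 5 haematopoietic progenitor markers summed to 1173 to 1189.8 CPM with GATA2 overexpression, 409 to 412 CPM in control CD90+ cells and 389 to 400.4 CPM in control CD38+ cells, and all 5 were called higher with GATA2 overexpression than in control CD90+ cells. Megakaryocyte markers took 3846 to 3944, 2417 to 2451 and 522 to 528 CPM in the same order. Mast cell and basophil markers took 454 to 513, 165 to 170.4 and 5120.4 to 5373 CPM. In control CD38+ cells CLC and HDC weighed most in this sum, at 3681 and 1300 CPM. Of the 8 markers, 2 were called higher and 5 lower in control CD90+ than in control CD38+ cells (41.1% and 39.3% of all genes tested). The 2 higher were KIT and FCER1A, at log2 fold changes of 0.25 and 1.27, and MS4A2 was not called. Erythroid markers took 389 to 463, 788 to 809 and 239.9 to 247 CPM.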

How the data were processed

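Strand-specific paired-end RNA-seq libraries were sequenced, per the labels' protocols. HISAT2 and featureCounts were used with hg38, per the submitters' processing notes; versions, strand setting and annotation were not found in the labels. The deposited values are the authors' raw counts, integers listed by gene symbol, not corrected for depth.

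Counts were fitted with edgeR 4.0.16 (R 4.3.3): TMM factors, filterByExpr, 1 model of 3 group means over 9 libraries with no replicate block, quasi-likelihood tests and Benjamini-Hochberg adjustment over 16232 genes. The fit was also run on simulated data in which far fewer genes changed than were called here. That run therefore does not give the error rate of these calls. SEs were taken from the fold change and its F statistic. Intervals cover the spread between libraries. Replicate libraries differed by 3.96 to 7.84 chi-square per degree of freedom, so each counted as 1 sample. All 28 members are named; genes of other lists were named where called at least 2-fold, at most 4 per list, comparison and direction, and some of these are not reported here. Members and lists were chosen with earlier results of these data known. Alternatives were other scalings, filters, DESeq2 1.42.0, fits on 2 groups, a replicate block and leaving out each library. DESeq2 was run by this re-analysis only.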

Additional observations from a re-analysis of the deposited data

How the results depend on the processing

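Directions and calls depended most on library scaling. Relative to TMM, library size alone shifted the all-gene median by 0.41, -0.25 and 0.16 on the log2 scale in control CD90+ against control CD38+, GATA2 overexpression against control CD90+ and GATA2 overexpression against control CD38+, and upper-quartile factors by 0.26, -0.11 and 0.15; the members' median moved with it, staying 0.19, 0.52 and 0.64 above that of all genes. In control CD90+ against control CD38+, genes called lower numbered 3851 with library size alone, against 6377, and members called lower 1 with library size alone, 2 with upper-quartile factors and 5 with a filter of at least 1 CPM, with the 2 groups alone and with DESeq2, against 8. In GATA2 overexpression against control CD90+, members called lower numbered 8 with library size alone and 5 with upper-quartile factors or the 1 CPM filter, against 3. In GATA2 overexpression against control CD38+ they numbered 0 with library size alone or upper-quartile factors, against 1. Of all called genes, the share called higher was 71.2%, 35.5% and 58.0% with library size alone, against 51.2%, 49.0% and 52.1% with TMM, and 64.3% in control CD90+ against control CD38+ with upper-quartile factors. The cause was not tested for the values below.

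Log2 fold changes whose sign turned in control CD90+ against control CD38+ were, with library size alone and upper-quartile factors, PMVK (0.28, 0.13), FDPS (0.31, 0.17), SQLE (0.32, 0.18) and FASN (0.36, 0.21); with library size alone, SREBF1 (0.10), ACLY (0.12) and ELOVL6 (0.011); and FASN also with the 1 CPM filter (0.0301) and the 2 groups alone (0.0074). In GATA2 overexpression against control CD90+ they were MVK with DESeq2's size factors in edgeR (-0.0381), library size alone (-0.24), upper-quartile factors (-0.10), the 1 CPM filter (-0.084) and DESeq2 (-0.0381); SQLE (-0.13, -0.00055) and SREBF1 (-0.13, -0.00027) with library size alone and upper-quartile factors; SCAP with library size alone (-0.0781); and SCD with library size alone (-0.20), upper-quartile factors (-0.0636) and the 1 CPM filter (-0.0459). Leaving out 1 library turned the sign of MVK (range -0.0798 to 0.0815), LSS (-0.30 to 0.13) and CYP51A1 (-0.0866 to 0.0626), none of them called. In GATA2 overexpression against control CD38+, INSIG1 turned with library size alone (0.14) and upper-quartile factors (0.13).

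The replicate numbers did not pair the libraries: same-numbered libraries deviated from their group means with correlations from -0.118 to 0.0135. With a replicate block, 26, 22 and 25 members were called in the same order, against 26, 22 and 24. Leaving out 1 library gave 24 to 25, 21 to 23 and 23 to 26 members called. Low counts limit LSS, MVK and CYP51A1 most.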
